A study of Mus musculus with 8 samples.

Results

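Mouse blastocysts were compared with MII oocytes, the mature eggs that wait in the second meiotic metaphase for fertilization. The comparison used 6 of the 8 arrays in the series, those that the labels assign to blastocysts (4 arrays, 2 KO and 2 WT) and to MII oocytes (2 arrays, 1 KO and 1 WT). KO and WT refer to connexin 43 (CX43), a gap junction protein encoded by Gja1, and the study asked what its loss does to the transcriptome of early stages. The labels give no strain, age, deletion driver, number of animals or number of oocytes and embryos per array. They also do not say whether replicate blastocyst arrays came from separate collections, so the p-values below measure the spread between these arrays, which may be technical. Of 18161 genes with a probe set annotated to a single gene, 11969 were bright enough to be tested.

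A fully grown oocyte is transcriptionally silent and carries out meiosis, fertilization and the first cleavage on mRNA and protein that it stored during growth. These maternal messages are then cleared, and the embryo starts to transcribe its own genome in early cleavage. By the blastocyst stage an outer epithelium, the trophectoderm, pumps fluid into a cavity and surrounds the inner cell mass, which gives rise to epiblast and primitive endoderm. Trophectoderm later mediates implantation.

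Values are MAS5 signals on a linear scale, with the 2% trimmed mean of every array at 500. The brightest of 27 Bacillus control probe sets served as the background level of an array: it was 588 and 171 on the KO and WT oocyte arrays and 322 to 560 on the blastocyst arrays. The labels do not say whether RNA for these controls was added; if it was, this level lies above the true background, and each "at least" and "below background" holds only against this level. Differences are given as the mean log2 signal of the 4 blastocyst arrays minus that of the 2 oocyte arrays, with the standard error (SE) and the Benjamini-Hochberg adjusted p of a limma fit with stage and genotype as terms. Where every array of the dimmer stage was at or under its background level, the change is written as "at least". It was computed after every value was raised to the background level of its own array. Such a value is a lower bound only if every array of the brighter stage exceeded its own background level. An adjusted p printed beside an "at least" value comes from the fit to values that were not raised. The oocyte WT array had the lowest background, and 45.4% of its probe sets exceeded it, against 20.4% on the oocyte KO array and 23.3% to 34.0% on the blastocyst arrays. Log2 signals over all probe sets correlated at 0.75 between the oocyte arrays, at 0.77 to 0.84 among the blastocyst arrays and at 0.50 to 0.57 between stages. The Actb 3′ control probe set read 1336 and 1629 in oocytes and 22947 to 60372 in blastocysts, and its 3′ to 5′ ratio was 6.68 and 33.4 in oocytes and 25.7 to 69.3 in blastocysts. The share of these differences in RNA integrity or labelling in the results was not tested. In whole-sample RNA, a change in the number of cells of a type and a change in RNA per cell cannot be told apart.

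The stage labels were checked against marker genes. The summed signal of 10 oocyte markers was 70988 and 105687 on the oocyte arrays and 2645 to 4125 on the blastocyst arrays. Oosp1 (45587 and 77828) and Gdf9 (14153 and 18394) made up most of the oocyte sums. Of the 10 markers, 8 and 9 exceeded background on the oocyte arrays and 2 to 3 on the blastocyst arrays. For 6 trophectoderm markers the sum was 7761 and 11368 in oocytes, mostly Tfap2c (4911 and 9850), and 50332 to 63605 in blastocysts. For 4 inner cell mass markers it was 1297 and 603 against 3912 to 6430. All 6 trophectoderm markers exceeded background on all 4 blastocyst arrays, as did 3 of them on the oocyte KO and 4 on the oocyte WT array. The groups do not overlap for any of these sums. The targeted gene, Gja1, did not separate the genotypes in oocytes, where both arrays were below background at 150 (KO) and 126 (WT). In blastocysts it read 375 and 553 on the KO arrays and 9835 and 574 on the WT arrays, so that 1 WT array stood far above the other 3. The labels do not locate the deletion within Gja1, so its probe set cannot serve as a check of genotype.

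Stage was a broad difference: 3099 of the 11969 genes tested were higher in blastocysts (25.9%) and 2403 were lower (20.1%), so that 46% changed in either direction at an adjusted p under 0.05. The median log2 difference of all genes tested was 0.25. It was 0.07 after quantile normalization and 0.08 after setting all arrays to a common median, so that differences near this size depend on the scaling. A change of 10-fold or more was reached by 602 of the genes called higher and 780 of those called lower. After every value was raised to the background level these numbers were 245 and 418, so the falls from a bright level in the oocyte were the more numerous. All 5502 genes called had the same sign in the KO arrays and in the WT arrays taken separately. The fit all but ensures this, because its stage difference is the mean of the KO and WT differences and their disagreement adds to the error. It is therefore no separate check between genotypes. Of the genes called higher, 922 were at or below background on both oocyte arrays, and of the genes called lower, 754 were at or below background on all 4 blastocyst arrays. In 3555 genes (29.7%) all blastocyst arrays lay above both oocyte arrays and in 3119 (26.1%) all lay below.

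**Figure D1:**
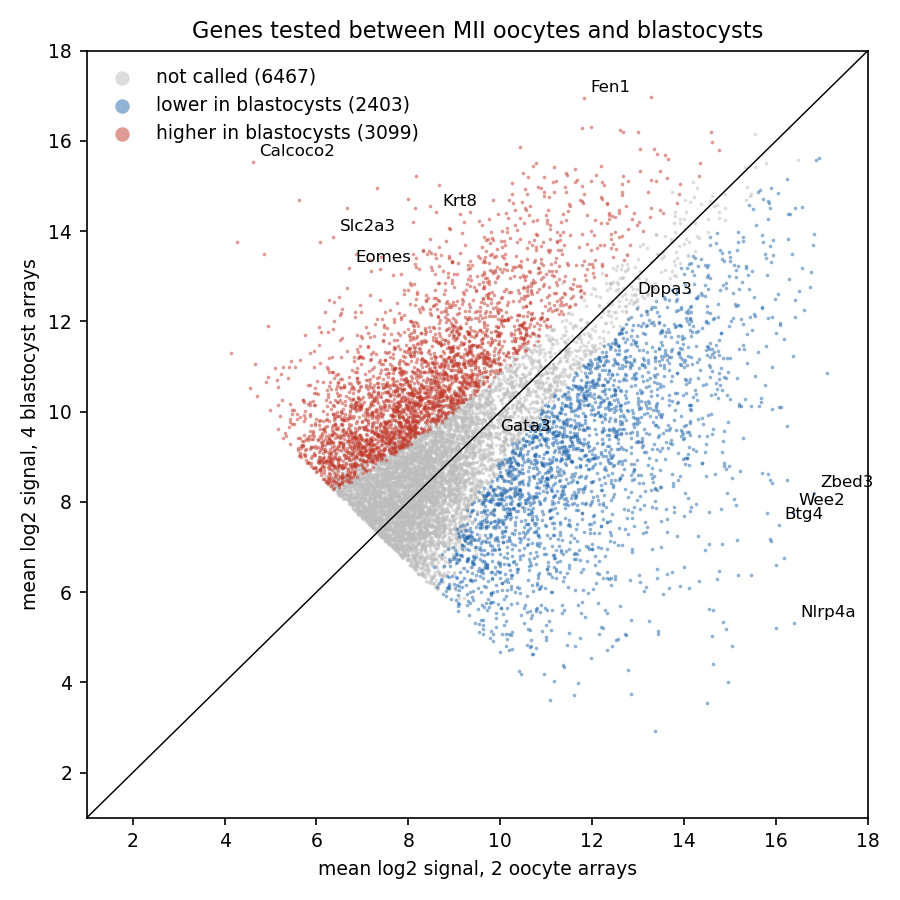
Mean log2 signal in blastocysts (4 arrays, vertical axis) against oocytes (2 arrays, horizontal axis) for the 11969 genes tested, coloured by the call at an adjusted p under 0.05; the line marks equal signal. The 3099 genes called higher lie above the line and the 2403 called lower below it, and Wee2, Btg4, Zbed3 and Nlrp4a stand at the bright oocyte edge. The empty lower left corner is the filter on dim probe sets.

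The largest falls were of messages stored in the egg. Zbed3, encoding a zinc finger protein that belongs to the subcortical maternal complex, read 94618 and 143826 on the oocyte arrays and 190 to 423 in blastocysts, a log2 difference of -8.63 (SE 0.39, adjusted p = 7.42e-07). Wee2, the oocyte kinase that inhibits CDK1 and is needed to leave metaphase II, fell from 58941 and 121103 to between 153 and 295, at least 198-fold. Btg4, an adaptor that brings the CCR4-NOT deadenylase to maternal mRNA for decay, fell from 60246 and 77433 to between 57.4 and 322, at least 160-fold. For each of these genes both oocyte arrays lay far above every blastocyst array. Nlrp4a, a member of the oocyte NLRP family, fell at least 201-fold, from 74277 and 98872 to between 11.1 and 147. Bcl2l10, a BCL2 relative abundant in eggs, fell at least 154-fold, and the oocyte-secreted protein gene Oosp1 at least 139-fold. With 2 genes known only by a clone or model name left out, the 15 largest falls were completed by Khdc1b, Bpgm, Oosp3, Ggct, Elavl2, Eif4e3, Obox5, Obox2 and Kbtbd8. Among them are Elavl2, an RNA-binding protein of growing oocytes, Eif4e3, a cap-binding protein, and Bpgm, the enzyme that makes bisphosphoglycerate. Of these 15 genes, all had non-overlapping groups, as the rule for naming them required.

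The sequence just before the start differed between falls that reached background and falls that did not. Genes that fell at least 10-fold over background to the background level on all 4 blastocyst arrays (98 with a promoter in the RefSeq table for GRCm38.p6) had a median observed to expected CpG ratio of 0.419 in the 250 bases before the start, and 48% had a ratio under 0.4. In genes that fell as far but remained above background on all 4 blastocyst arrays (120) the median was 0.819, and 3.33% were under 0.4. All genes tested that had a promoter (9697) had a median of 0.712, with 21.2% under 0.4. Genes called higher had a median of 0.746 and genes called lower 0.776, so the low ratio was not a feature of the falls as a whole. The hexamer CANNTG, the E-box core, was present on either strand in 77.6% of the 98 windows, in 50.8% of the 120 and in 58.2% of all. The 98 windows were also poorer in G and C (median 52.4%) than the 120 (64.8%) and all windows (59.6%), and the part of base composition in the E-box shares was not tested. Each gene entered with the first start listed for it, and any other start was not examined. These groups of genes were formed after their values had been seen, and the numbers are a description of them.

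The 3 largest falls of each kind are shown, with every CG in capitals. Each window is the 250 bases before the first start listed for the gene, on its strand (RefSeq, GRCm38.p6). The first 3 reached background in blastocysts: Nlrp4a (chr7:26434863-26435112, plus strand), Wee2 (chr6:40442613-40442862, plus strand) and Btg4 (chr9:51115751-51116000, plus strand). The other 3 remained above it: Spin1 (chr13:51100630-51100879, plus strand), Ern1 (chr11:106487797-106488046, minus strand) and Rhpn2 (chr7:35333987-35334236, plus strand). The windows of Wee2 and Btg4 lie inside the spans of these genes (chr6:40435246-40466815 and chr9:51102147-51119924). They therefore precede an internal start and not the outermost start of the gene.

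Nlrp4a: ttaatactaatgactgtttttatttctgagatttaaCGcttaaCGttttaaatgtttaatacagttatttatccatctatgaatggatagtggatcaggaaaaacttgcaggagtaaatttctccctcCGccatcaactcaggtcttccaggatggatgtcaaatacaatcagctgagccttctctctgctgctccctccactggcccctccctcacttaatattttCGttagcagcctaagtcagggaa
Wee2: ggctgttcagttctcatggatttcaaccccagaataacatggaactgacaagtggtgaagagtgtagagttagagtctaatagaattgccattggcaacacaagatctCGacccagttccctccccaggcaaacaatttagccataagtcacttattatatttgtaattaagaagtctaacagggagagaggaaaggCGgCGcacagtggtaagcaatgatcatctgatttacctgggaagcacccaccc
Btg4: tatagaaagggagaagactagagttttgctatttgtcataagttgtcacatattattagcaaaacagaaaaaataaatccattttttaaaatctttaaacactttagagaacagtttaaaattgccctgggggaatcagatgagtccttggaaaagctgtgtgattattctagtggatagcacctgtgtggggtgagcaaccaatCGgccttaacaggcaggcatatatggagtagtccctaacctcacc
Spin1: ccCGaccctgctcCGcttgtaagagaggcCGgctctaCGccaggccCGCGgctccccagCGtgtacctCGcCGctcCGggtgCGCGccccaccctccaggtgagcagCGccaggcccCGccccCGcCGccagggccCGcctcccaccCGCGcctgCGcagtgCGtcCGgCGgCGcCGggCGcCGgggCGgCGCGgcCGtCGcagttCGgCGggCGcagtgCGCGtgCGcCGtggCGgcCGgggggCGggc
Ern1: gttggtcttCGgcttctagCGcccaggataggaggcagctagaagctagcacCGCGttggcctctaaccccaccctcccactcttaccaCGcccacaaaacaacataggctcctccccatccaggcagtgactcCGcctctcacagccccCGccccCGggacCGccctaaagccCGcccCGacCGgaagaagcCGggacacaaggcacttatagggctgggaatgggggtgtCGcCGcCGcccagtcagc
Rhpn2: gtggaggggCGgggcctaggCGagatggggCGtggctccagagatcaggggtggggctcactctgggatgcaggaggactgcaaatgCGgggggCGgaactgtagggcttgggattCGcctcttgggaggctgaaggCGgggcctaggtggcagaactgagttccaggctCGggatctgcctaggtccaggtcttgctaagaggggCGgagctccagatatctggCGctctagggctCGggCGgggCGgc

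The windows of Nlrp4a, Wee2 and Btg4 hold 4, 3 and 1 CG, and those of Spin1, Ern1 and Rhpn2 hold 42, 16 and 13. Spin1, a histone reader first described as an abundant maternal transcript, was still at 881 to 3653 in blastocysts after 101306 and 200702 in oocytes (log2 difference -6.27, SE 0.29). Ern1, the stress sensor IRE1 of the endoplasmic reticulum, went from 53510 and 94211 to between 686 and 1332, and Rhpn2 from 45823 and 84207 to between 721 and 1413. Both stayed well clear of the oocyte values on every blastocyst array. One of 4 probe sets of Ern1 did not share its direction, with a log2 difference of 0.66. Spin1, Ern1 and Rhpn2 were named after their values were seen. For 24 tested genes of the egg surface, maternal complex, Nlrp and Obox lists with a promoter, the median CpG ratio was 0.187 and 83.3% held CANNTG.

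**Figure D2:**
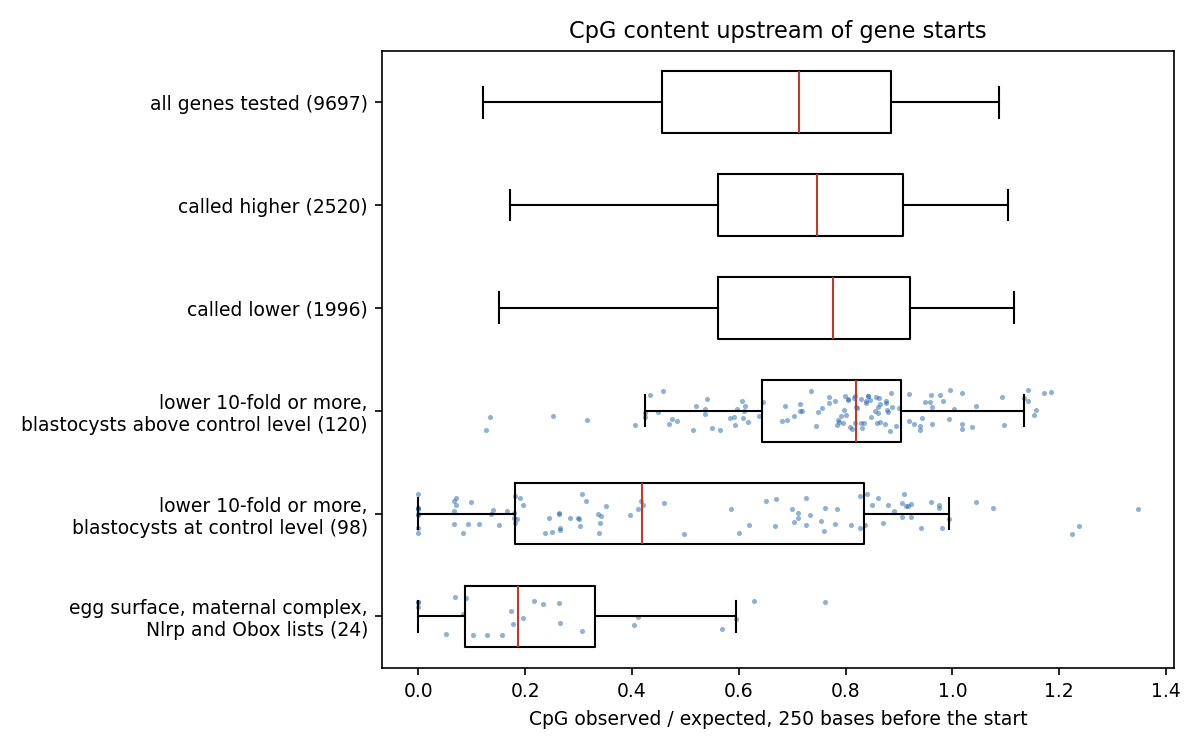
Ratio of observed to expected CpG in the 250 bases before the start (horizontal axis) for groups of genes, with the number of promoters in brackets; boxes span the quartiles, red lines are medians, whiskers the 5th to 95th percentile and points single genes in groups of at most 200. The median is 0.419 for genes that fell to background and 0.819 for genes that fell as far but remained above it, against 0.712 for all.

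The zona pellucida, the glycoprotein coat of the egg, was dim on these arrays. Of 12 listed egg-surface genes 9 were tested, of which 6 fell (Zp2, Cd81, Astl, Oosp1, Oosp2 and Oosp3), 1 rose (Cd9) and 2 were not called; the median log2 difference was -2.16. Here and in the lists that follow, a member was tested only if the mean of its 2 stage means passed the filter. A member dim in 1 stage passed only if it was bright enough in the other. These counts describe the members that passed and not the whole list. Zp2, the sperm-binding zona protein, read 1500 and 747 in oocytes and 260 to 481 in blastocysts (log2 difference -1.51, SE 0.48, adjusted p = 0.0266). Its adjusted p was 0.241 without the oocyte KO array and 0.0669 without blastocyst KO array 1. Zp3, another zona protein, was below the filter with 245 and 112 in oocytes and 45.8 to 367 in blastocysts, and its groups overlap. Zp1 was also below the filter, at 488 and 279 against 26.5 to 88.2. Cd9, the tetraspanin needed on the egg for fusion with sperm and also made by epithelia, rose from 399 and 218 to between 1067 and 1494 (log2 difference 2.13, SE 0.40).

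The subcortical maternal complex is an assembly of egg proteins below the plasma membrane that the cleaving embryo needs. Of its 8 members tested 5 fell, 1 rose and 2 were not called, with a median of -4.00 (-2.50 after raising to background). Nlrp5, its founding member, fell from 2555 and 2083 to between 145 and 295, at least 5.4-fold (adjusted p = 0.000209), and Padi6, a peptidylarginine deiminase of the egg, fell at least 5.96-fold. Tle6, a transducin-like member, was 993 and 370 in oocytes and 68.9 to 379 in blastocysts, where the groups overlap (adjusted p = 0.1). Ooep, an RNA-binding-fold member, was 2314 and 1614 against 963 to 1293 and was not called (adjusted p = 0.0701). Khdc3, known as Filia, ran the other way: it rose from 731 and 255 to between 6890 and 11481 (log2 difference 4.37, SE 0.41, adjusted p = 1.56e-05). All 10 Nlrp genes tested were called, 9 lower and 1 higher, with a median of -6.46, or -3.67 after values were raised to the background level. Nlrp9a fell at least 72.3-fold and Nlrp4b at least 59.3-fold, while the gene called higher was Nlrp4c.

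Genes of oocyte growth factors and regulators were called lower in 8 of 13 and higher in none. Gdf9, the oocyte factor that directs cumulus cells, fell from 14153 and 18394 to between 351 and 1027 (log2 difference -4.48, SE 0.44), and Bmp15, its partner, fell at least 6.73-fold, from 2402 and 3437 to between 85.6 and 256. Kit, the receptor for kit ligand, fell at least 16-fold, and Lhx8, a transcription factor of early follicles, at least 9.37-fold. Lhx8 lost its call without the oocyte WT array (adjusted p = 0.0539). Among 4 oocyte homeobox (Obox) genes tested, Obox5 and Obox2 fell and Obox6 rose from 150 and 200 to between 329 and 1288; Obox6 also lost its call without the oocyte WT array (adjusted p = 0.0734).

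In the list for storage and decay of maternal mRNA, 30 genes were tested, of which 18 were lower, 3 higher and 9 not called, with a median of -2.49 against 0.25 for all genes. Zar1, which binds maternal mRNA 3′ ends, fell from 16681 and 8546 to between 463 and 1246 (log2 difference -4.01, SE 0.30). Lsm14b, an RNA granule protein, went from 31530 and 53899 to between 1134 and 1351, and Dcp1a, an activator of decapping, from 21127 and 24222 to between 283 and 943. Blastocyst arrays of these 3 genes all lay below the oocyte arrays. Dazl, a germ cell translation regulator, fell at least 20.9-fold. The deadenylase genes Cnot7, Cnot8, Cnot6l and Cnot11 and the poly(A) nuclease genes Pan2 and Pan3 were called lower as well. The members called higher were the decapping enzyme Dcp2 and the terminal uridylyl transferases Tut4 and Tut7.

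For meiotic maturation and metaphase arrest the calls went both ways: of 36 tested genes 17 fell and 7 rose, with a median of -1.19 (-0.78 after raising to background). Aurkc, the meiotic Aurora kinase, fell from 15505 and 20021 to between 845 and 1453 (log2 difference -3.96, SE 0.27). The spindle checkpoint kinase Bub1b fell from 28542 and 37683 to between 1684 and 3275. Of 3 Bub1b probe sets 2 shared this direction, and the highest read 0.38. Pttg1, the securin that holds back anaphase, went from 72528 and 164364 to between 2689 and 17953. Mos, the kinase behind metaphase arrest, read 752 and 823 in oocytes and 44.3 to 177 in blastocysts, at least 1.84-fold lower. Its fitted log2 difference on values not raised was -3.19 (adjusted p = 0.00515). Mos was not called after raising values to the background level (-0.88, adjusted p = 0.0536). It also lost the call without the oocyte KO array (log2 difference -2.65). The members that rose were Wee1, Aurkb, Bub1, Cdk1, Cdc25c, Sycp3 and Ppp2ca, most of which also serve mitosis.

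**Figure D3:**
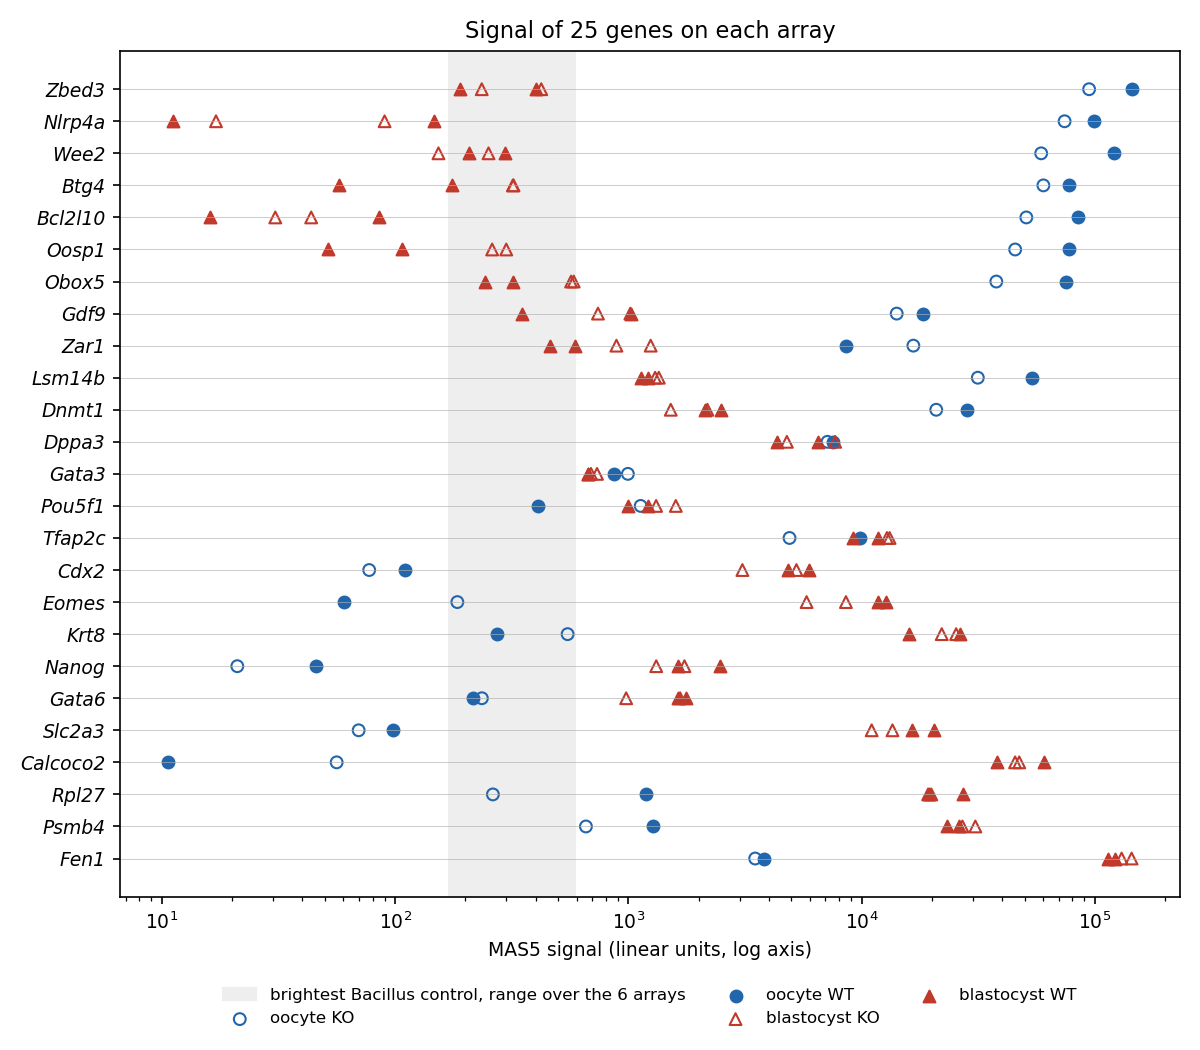
MAS5 signal (horizontal log axis) of 25 genes on the 2 oocyte arrays (blue circles) and the 4 blastocyst arrays (red triangles), open for KO and filled for WT; the grey band spans the brightest Bacillus control of the 6 arrays, 171 to 588. Maternal genes such as Wee2 fall into or below the band, Lsm14b and Dnmt1 fall but stay above it, and the stages overlap for Dppa3, Pou5f1 and Tfap2c.

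Of the 15 largest rises, Calcoco2, Crxos, Slc2a3, Timd2, Psat1 and Pramel7 were at or below background on both oocyte arrays. Calcoco2, an autophagy receptor also called NDP52, read 56.1 and 10.6 in oocytes and 38184 to 60794 in blastocysts, at least 149-fold (log2 difference 10.92, SE 0.47, adjusted p = 7.42e-07). Crxos, a homeobox gene of early embryos, rose at least 83.6-fold and Slc2a3, the high-affinity glucose transporter GLUT3 of the trophectoderm, at least 47.3-fold, from 69.7 and 97.4 to between 11050 and 20402. Timd2, a receptor for ferritin, rose at least 44.2-fold, Psat1, an enzyme of serine synthesis, at least 44-fold and Pramel7, of a family linked to pluripotency, at least 36.7-fold. In all of these the blastocyst arrays stood far above the oocyte arrays. Slc15a2, the peptide transporter PEPT2, went from 127 and 198 to between 25364 and 38374 (log2 difference 7.64, SE 0.29; 0.93 and not called on probe sets without a name suffix), and Bhmt, which remethylates homocysteine with betaine, from 257 and 638 to between 21834 and 56317. Lrpap1, Krt8, Dppa5a, Cndp2, Efhd2, Nrip2 and Tspan8 completed the 15 largest rises, with 1 gene known only by a clone or model name left out. Among 9 tested genes known for activation early in cleavage, 5 rose, none fell and 4 were not called, and Pramel6 rose at least 36.6-fold.

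Trophectoderm genes rose in 22 of 34 tested, fell in 2 and were not called in 10, with a median of 2.34 (1.5 after raising to background). Cdx2, the homeobox gene that specifies this lineage, rose from 77.4 and 110 to between 3084 and 5980, at least 14.7-fold (log2 difference 5.66, SE 0.34, adjusted p = 1.69e-06). Eomes, the T-box factor of trophoblast stem cells, rose from 185 and 60.2 to between 5812 and 12791, at least 29.4-fold. Tead4, the DNA-binding partner of YAP upstream of Cdx2, rose at least 3.58-fold and Gata2, a trophoblast GATA factor, from 110 and 420 to between 1004 and 1751. None of the blastocyst arrays overlapped the oocytes for these genes. Gata3, often used as a marker of this lineage, was not called: it was 995 and 864 in oocytes and 668 to 734 in blastocysts (log2 difference -0.43, SE 0.36, adjusted p = 0.363). Tfap2c, another regulator of the lineage that eggs also contain, was 4911 and 9850 against 9225 to 13192 and overlapped (adjusted p = 0.0818). Its 3 probe sets ranged from -0.63 to 0.74, so its direction rests on the choice of probe set.

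The upstream windows of Cdx2 (chr5:147307250-147307499, minus strand) and Eomes (chr9:118477939-118478188, plus strand) are shown beside that of Zp3 (chr5:135979855-135980104, plus strand), again with every CG in capitals, to set the trophectoderm regulators against a zona gene.

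Cdx2: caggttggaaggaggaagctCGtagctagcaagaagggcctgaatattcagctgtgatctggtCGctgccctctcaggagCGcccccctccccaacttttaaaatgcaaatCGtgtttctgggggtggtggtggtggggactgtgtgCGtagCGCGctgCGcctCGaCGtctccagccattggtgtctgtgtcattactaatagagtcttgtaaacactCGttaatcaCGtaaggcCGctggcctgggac
Eomes: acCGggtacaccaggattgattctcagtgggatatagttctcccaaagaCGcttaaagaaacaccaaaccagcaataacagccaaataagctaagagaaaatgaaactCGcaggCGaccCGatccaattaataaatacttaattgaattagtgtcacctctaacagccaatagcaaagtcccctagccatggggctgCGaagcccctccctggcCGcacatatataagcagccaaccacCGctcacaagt
Zp3: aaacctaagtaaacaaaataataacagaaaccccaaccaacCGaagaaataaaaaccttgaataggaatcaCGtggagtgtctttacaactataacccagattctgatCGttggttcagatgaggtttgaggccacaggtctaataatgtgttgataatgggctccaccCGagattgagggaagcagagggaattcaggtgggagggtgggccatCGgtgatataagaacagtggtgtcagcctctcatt

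They hold 13, 8 and 5 CG, with CpG ratios of 0.69, 0.621 and 0.431. The TEAD motif CATTCC (or GGAATG, its reverse complement) was searched on both strands and was in neither the Cdx2 nor the Eomes window. It was in 10.4% of all windows and in 8% of the 25 windows from the trophectoderm list.

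Keratin and desmosome genes, which build the trophectoderm's epithelial skeleton, rose in 10 of 13 tested and fell in 1, with a median of 3.29. Krt8 rose from 549 and 274 to between 15913 and 26533 (log2 difference 5.83, SE 0.30), its partner Krt18 from 1044 and 210 to between 6883 and 9768, and Dsp, the desmosomal plaque protein desmoplakin, from 204 and 630 to between 7676 and 11211. These groups did not overlap, and 1 of the 3 probe sets of Dsp went the other way (-1.07). For tight and adherens junctions and cell polarity the list was mixed, with 13 of 36 higher, 10 lower and a median of 0.37 (0.71 without the oocyte KO array). Epcam, an epithelial adhesion molecule, rose from 1309 and 58.2 to between 4239 and 19975, Cldn7 from 82.2 and 423 to between 3057 and 5588 and Cldn4 from 113 and 221 to between 1385 and 3496. Cdh1, the adhesion protein E-cadherin that eggs already store, rose from 1747 and 3045 to between 5468 and 7351 (log2 difference 1.45, SE 0.27). Rdx, the membrane-actin linker radixin, fell from 20028 and 41326 to between 2287 and 5034, while its relatives Ezr and Msn were called higher.

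The fluid pump of the blastocyst combines the sodium pump with water channels. In its list of 16 tested genes 6 rose and 3 fell, with a median of 0.81, which was 0.53 after raising to background, 0.32 without the oocyte WT array and 1.62 without the oocyte KO array. Atp1b1, the sodium pump's beta subunit, rose from 892 and 911 to between 4577 and 9330 (log2 difference 2.84, SE 0.28). Aqp3, a water and glycerol channel, rose at least 3.37-fold, from 441 and 55.9 to between 764 and 1362. Slc9a3r1, a scaffold for apical transporters, rose from 547 and 521 to between 4397 and 6541. The 3 lower members were Slc9a3, Slc12a2 and Cftr, of which Cftr, the chloride channel, lost its call without either oocyte array (adjusted p = 0.068 and 0.108). In the Hippo pathway, through which outer cells sense their position, 11 of 19 rose and 3 fell. Amot, the junctional protein that holds YAP out of the nucleus, rose from 470 and 264 to between 3284 and 7543. Yap1 itself fell from 26738 and 47312 to between 4397 and 6809, although its second probe set differed in direction (0.82).

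Pluripotency and inner cell mass genes rose in 16 of 30 tested and fell in 4, with a median of 2.42. This median was 1.16 after raising to background, 1.44 without the oocyte WT array and 3.54 without the oocyte KO array. Nanog, the homeobox factor of the epiblast, rose from 21 and 45.7 to between 1317 and 2467, at least 5.5-fold (log2 difference 5.81, SE 0.48). Sox2 rose at least 2.81-fold, and it was not called after raising values to the background level (adjusted p = 0.0742). Dppa5a, an RNA-binding protein of pluripotent cells, rose from 148 and 445 to between 23784 and 35300, Dppa2 from 1430 and 1573 to between 17941 and 34689, and Zfp42, known as Rex1, from 71.2 and 184 to between 3917 and 6350. All 5 separated the stages on every array. Pou5f1, the master factor OCT4, was 1129 and 409 in oocytes and 997 to 1598 in blastocysts and was not called (log2 difference 0.89, SE 0.37, adjusted p = 0.0728). Dppa3, the maternal protein Stella, was near equal at 7145 and 7549 against 4338 to 7709 (adjusted p = 0.335). The 4 members that fell were Sall4, Tcl1, Lin28a and Il6st, and Tcl1, an AKT coactivator stored in the egg, went from 28921 and 54920 to between 381 and 909.

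Of 19 primitive endoderm genes tested 10 rose and 1 fell, with a median of 1.53 (1.00 after raising to background). Gata6, which drives this lineage, rose from 235 and 215 to between 978 and 1761 (log2 difference 2.71, SE 0.39), Sox17 from 240 and 300 to between 696 and 3249, and Pdgfra, its surface receptor, from 78.8 and 199 to between 864 and 1529. Lrp2, the endocytic receptor megalin shared with trophectoderm, rose from 83 and 186 to between 3815 and 7527. Gata4 overlapped, at 83.7 and 238 against 181 to 564 (adjusted p = 0.185). Dab2, an adaptor for endocytosis, was called higher by its brightest probe set, and 2 of its 3 probe sets were at or below no difference.

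Connexins form the channels that the study targeted. Only 6 of 20 listed genes were bright enough to test: 2 rose (Gja1 and Gjb5), Gjc1 fell and 3 were not called. Gjb5 lost its call without the oocyte WT array (adjusted p = 0.202) and Gjc1 without the oocyte KO array (0.111). Gja1 was at or below background on both oocyte and both KO blastocyst arrays and above it on both WT blastocyst arrays. Its fitted log2 difference was 2.92 (SE 0.99, adjusted p = 0.0348). After raising values to the background level Gja1 was 3.6-fold higher in blastocysts. That is no lower bound, because both KO blastocyst values were raised as well. The fitted difference was 4.24 on WT arrays only (adjusted p = 0.00154) and 1.60 on KO arrays only (adjusted p = 0.0881), and the interaction with genotype was not called (adjusted p = 0.661). It was 1.86 without the bright blastocyst WT array (adjusted p = 0.0349) and 1.60 without the oocyte WT array (adjusted p = 0.392). It was also not called after quantile normalization (2.66, adjusted p = 0.0558) or after raising values to the background level (1.85, adjusted p = 0.251). The call was lost too with probe sets averaged (2.08, adjusted p = 0.0654) and on probe sets without a suffix (1.85, adjusted p = 0.0553). Without the intensity trend, with robust moderation and without the genotype term the adjusted p was 0.0917, 0.0595 and 0.0552. Genes known for the embryo's competence to implant stayed near the background of all genes, with 8 of 30 higher, 4 lower and a median of 0.17 (0.0837 to 0.44 with 1 array left out). Among them Erbb3, a receptor of the EGF family, rose from 658 and 537 to between 5548 and 8407 and Il6st, the gp130 signal transducer used by LIF, fell from 2726 and 5920 to between 57.7 and 635.

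Cytosolic ribosomal proteins were the most uniform of the lists, with 44 of 46 tested genes higher, none lower and a median of 3.39 (3.62 in KO and 3.19 in WT). Their median signal was 1198 and 1689 on the oocyte arrays and 13516 to 19816 on the blastocyst arrays. Rpsa read 1274 and 1895 in oocytes and 31225 to 44021 in blastocysts (log2 difference 4.61, SE 0.27, adjusted p = 1.45e-06), and Rpl27 262 and 1187 against 19300 to 27357. In 45 of the 46 genes every blastocyst array lay above both oocyte arrays. The members not called were Rps27 and Rps27l. The list holds 83 genes, of which 47 had a probe set annotated to a single gene, and many ribosomal protein genes have near-identical processed pseudogenes that a probe set cannot tell apart from the parent.

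**Figure D4:**
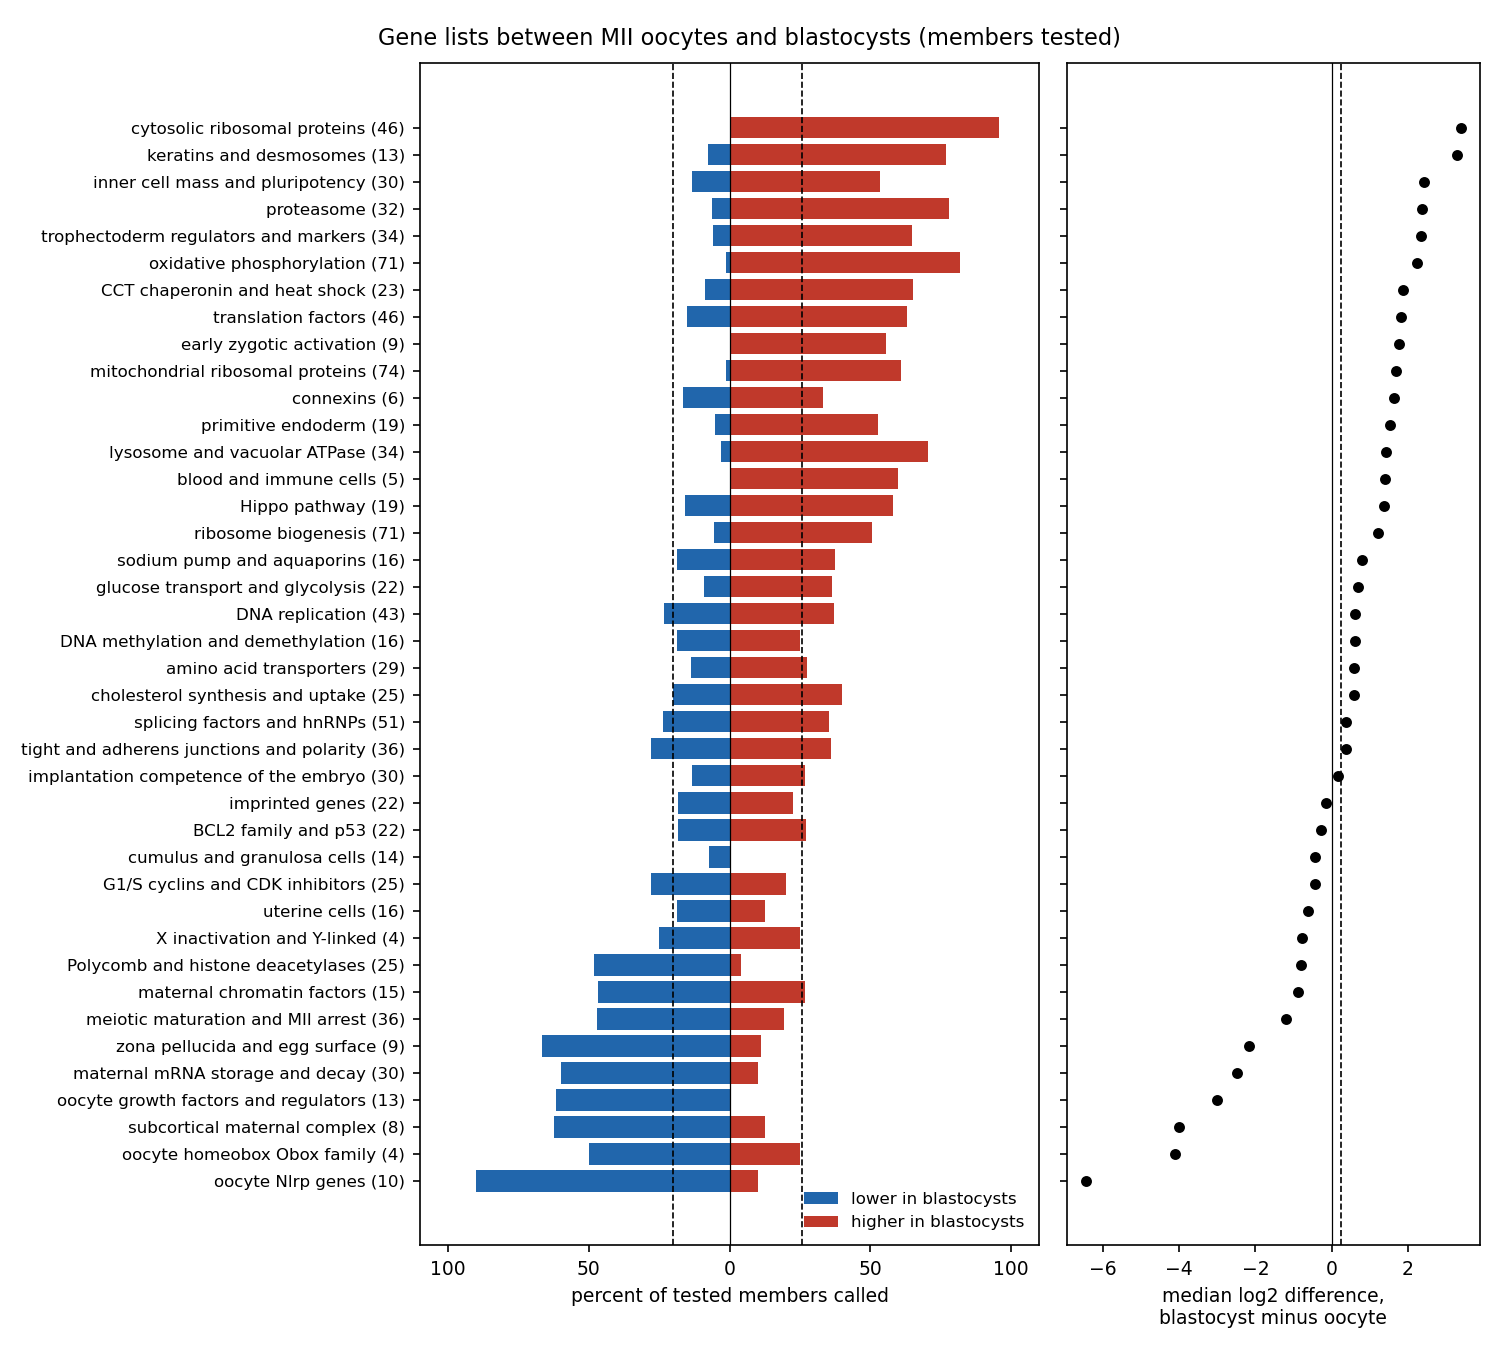
Share of tested members called higher (red) or lower (blue) in blastocysts for 40 gene lists (left, percent of members, number tested in brackets) and the median log2 difference of the members (right); dashed lines give the same for all 11969 genes tested (25.9% higher, 20.1% lower, median 0.25). Ribosomal proteins stand at the top with a median of 3.39 and oocyte Nlrp genes at the bottom with -6.46.

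Other parts of the protein synthesis apparatus moved the same way to a smaller extent. Translation factors rose in 29 of 46 tested and fell in 7 (median 1.83), and ribosome biogenesis genes rose in 36 of 71 and fell in 4 (median 1.23, and 0.79 without the oocyte WT array). Pabpc1, the somatic poly(A)-binding protein, rose from 1824 and 2127 to between 24860 and 40448 (log2 difference 3.92, SE 0.25), and Eif4ebp1, a brake on cap-dependent initiation, from 287 and 577 to between 7243 and 15106. Against this trend Eif4e, the cap-binding protein, fell from 18654 and 27810 to between 2629 and 5908, and Eef2k, the kinase that inhibits elongation, from 15548 and 19989 to between 678 and 823. One of 4 probe sets of Eif4e differed in direction (0.61).

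Mitochondrial genes encoded in the nucleus rose broadly. Oxidative phosphorylation subunits were higher in 58 of 71 and lower in 1 (Sdha), with a median of 2.24, and mitochondrial ribosomal proteins were higher in 45 of 74 and lower in 1 (Mrpl9), with a median of 1.68. Ndufs7, a complex I subunit, rose from 129 and 215 to between 8105 and 11988 (log2 difference 5.78, SE 0.29), Atp5pb, of the ATP synthase stalk, from 1137 and 1121 to between 14970 and 20919, and Mrpl22 from 162 and 178 to between 8696 and 15561. Stages did not overlap for any of these 3. Glucose transport and glycolysis was closer to the background, with 8 of 22 higher, 2 lower and a median of 0.70 (0.43 after raising to background): Tpi1, triose phosphate isomerase, rose from 598 and 412 to between 3214 and 4545, whereas Ldhb, the lactate dehydrogenase subunit of the egg, fell from 18838 and 16810 to between 307 and 589.

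Protein folding and disposal followed. Proteasome subunits rose in 25 of 32 tested and fell in 2 (Psmd4 and Psmd7), with a median of 2.38. Psmb4 rose from 658 and 1281 to between 23154 and 30763 (log2 difference 4.86, SE 0.30). CCT chaperonin and heat shock genes rose in 15 of 23 and fell in 2, Hsp90aa1 and Hsp90b1, with a median of 1.88; Tcp1, a CCT subunit, went from 702 and 598 to between 7730 and 15063. Lysosome and vacuolar ATPase genes rose in 24 of 34 and fell in 1 (Ctsh), with a median of 1.43. Hexa, the hexosaminidase alpha chain, rose at least 18.7-fold, from 62.7 and 130 to between 4065 and 7939.

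The cell cycle and RNA lists stayed closer to the background. DNA replication genes were higher in 16 of 43 and lower in 10 (median 0.62, and 0.28 without the oocyte WT array), splicing factors and hnRNPs higher in 18 of 51 and lower in 12 (median 0.38, and 0.61 without the oocyte WT array), and G1/S cyclins and CDK inhibitors higher in 5 of 25 and lower in 7 (median -0.43, -0.15 without the oocyte KO array and 0.22 after raising values to the background level). Single members still moved far. Fen1, the flap endonuclease of lagging strand synthesis, rose from 3498 and 3806 to between 113769 and 143930 (log2 difference 5.12, SE 0.25), among the brightest signals in blastocysts. Slbp, which binds the stem-loop of histone mRNA, fell from 49059 and 76824 to between 1476 and 2772, with its other probe set at 0.74. Rb1, the retinoblastoma protein that restrains S phase entry, fell at least 21.6-fold. Amino acid transporters (8 of 29 higher, 4 lower), cholesterol genes (10 of 25 higher, 5 lower), BCL2 and p53 genes (6 of 22 higher, 4 lower) and imprinted genes (5 of 22 higher, 4 lower) had medians of 0.58, 0.58, -0.27 and -0.15. With 1 array left out these ran from 0.0038 to 0.81, 0.0586 to 0.996, -0.36 to -0.0876 and -0.39 to 0.0619, and after raising values to the background level the last pair were 0.0524 and 0.14.

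Among chromatin regulators the lists differed. Of 25 Polycomb and histone deacetylase genes tested 12 fell and 1 rose, with a median of -0.81 (-0.52 after raising to background). Ezh2, the Polycomb methyltransferase, fell from 16355 and 21204 to between 1377 and 3135 (log2 difference -3.12, SE 0.27), and Bmi1, a subunit of the other Polycomb complex, from 46840 and 67981 to between 1672 and 6746. The exception was Hdac1, a deacetylase, which rose at least 10-fold, from 182 and 89.6 to between 2356 and 4319. Among DNA methylation genes 4 of 16 rose and 3 fell, so 43.75% were called, close to the 45.97% of all genes tested. Single members still moved. Dnmt1, the maintenance methyltransferase, fell from 20913 and 28451 to between 1520 and 2495 and its cofactor Uhrf1 from 26746 and 48666 to between 2760 and 8208. Dnmt3b, a de novo methyltransferase, rose from 2738 and 3191 to between 11172 and 18892 (log2 difference 2.40, SE 0.26), the dioxygenase Tet1 rose by 2.02 (SE 0.34), and its relative Tet2 rose at least 7.13-fold. Tet3, the oocyte's dioxygenase, was dim at 439 and 327 against 139 to 503 and overlapped; its log2 difference was -0.78 as deposited and 0.10 after raising values to the background level. Of 15 maternal chromatin factors 7 fell and 4 rose, and H1f8, the oocyte linker histone, fell at least 4.83-fold (adjusted p = 0.000968, and 0.0525 without the oocyte WT array). In the list of X inactivation and Y-linked genes 4 were tested, of which Rlim fell and 2, Jpx and Uty, were not called. Only 2 of 4 Rlim probe sets shared its direction. With probe sets averaged Rlim was called higher (log2 difference 0.88, adjusted p = 0.0358). Of the Y-linked genes, Uty overlapped between stages. Eif2s3y and Kdm5d were below the filter and at or below background on all 6 arrays. Xist, the RNA that coats the inactive X, rose from 929 and 3400 to between 15427 and 23388 (log2 difference 3.45, SE 0.38).

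In 22 pairs of an egg- or germline-biased gene and a general relative, 12 had both members tested. In 3 of them the members were called in opposite directions. Wee2 fell at least 198-fold while Wee1 rose by 2.82 (SE 0.40), although 1 of 2 Wee1 probe sets read -1.44. Aurkc fell by 3.96 while Aurkb, the mitotic chromosomal passenger kinase, rose by 2.23 (SE 0.67, adjusted p = 0.02). Aurkb reached 221 to 662 in blastocysts, above background on 2 of 4 arrays. After raising values to the background level it rose 1.64-fold, which is no lower bound, because blastocyst values were raised too. Aurkb lost its call without blastocyst KO array 2 (adjusted p = 0.0781) or blastocyst WT array 1 (0.0532). It also lost the call without the oocyte KO array (log2 difference 1.77). Kpna7, the egg's importin alpha, fell from 2910 and 2036 to between 24.3 and 323, at least 5.7-fold, while Kpna2 rose from 787 and 1345 to between 6896 and 12981 (log2 difference 3.16, SE 0.29). Kpna7 lost its call without the oocyte WT array (adjusted p = 0.0693). In Lsm14b with Lsm14a and Cpeb1 with Cpeb4 both members fell, and in Dnmt3l with Dnmt3b both rose. Without the oocyte WT array Cpeb1 and Dnmt3l were not called (adjusted p = 0.0769 and 0.117). Bcl2l10 fell while Bcl2l1 was not called (log2 difference -0.25, SE 0.31).

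**Figure D5:**
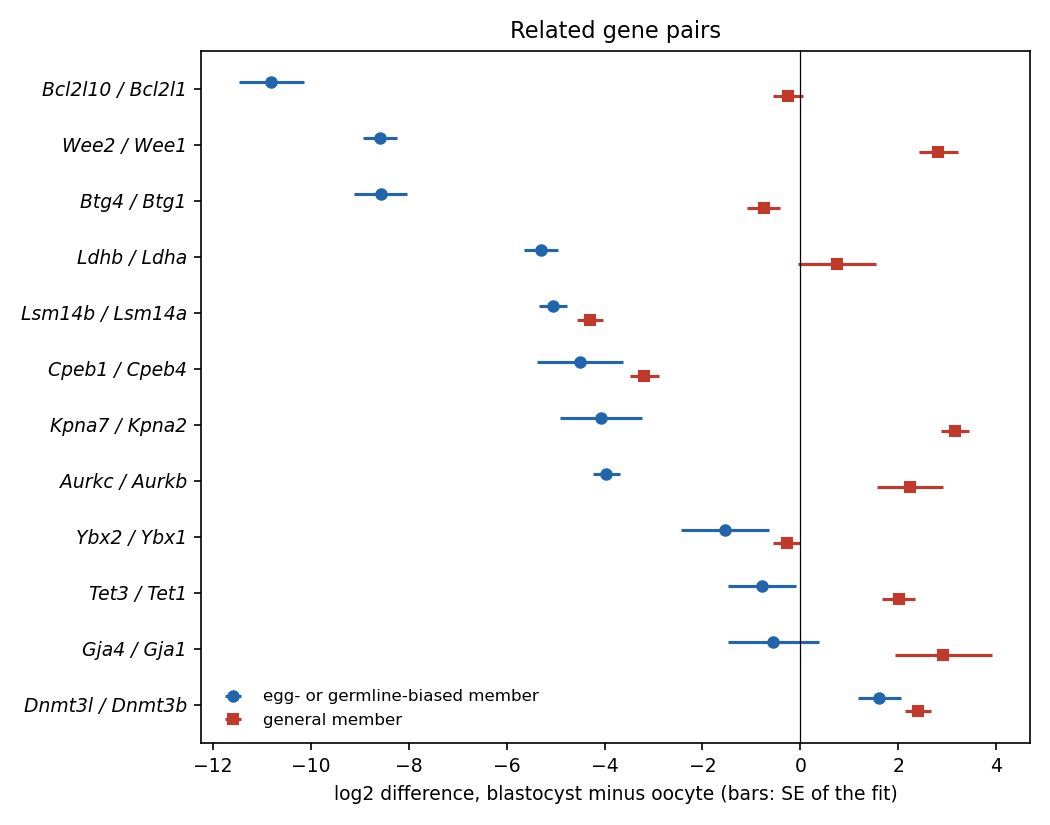
Log2 difference (blastocyst minus oocyte, horizontal axis, bars 1 SE of the fit) for 12 pairs of an egg- or germline-biased gene (blue circles) and a general relative (red squares). Wee2 and Wee1, Aurkc and Aurkb, and Kpna7 and Kpna2 lie on opposite sides of 0 and are called in opposite directions.

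Neighbouring genes were called together in 3 runs of 7 or more consecutive tested genes in RefSeq order on GRCm38. On chromosome 4, 7 genes of the Pramel and Oog cluster (Pramel12, Oog4, Pramel25, Pramel27, Oog3, Pramel29 and Pramel13) were all lower. These genes are close relatives, and their probe sets may share targets. On chromosome 17, 12 neighbours from Slc22a7 to Cnpy3 were all higher, and on chromosome 15 another 7 from Gxylt1 to Tmem117 were lower. Leaving out chromosome Y with 3 genes tested, the share called higher ran from 21.6% (chromosome 14) to 31.3% (chromosome 17). The share called lower ran from 14.6% (chromosome 7) to 25.2% (chromosome 18).

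The stage difference was then compared between genotypes with an interaction term, in which the spread comes from the blastocyst pairs alone and each single oocyte array is assumed to vary like them. Of 11969 genes, 2 passed (0.0167%), with 1268 at an unadjusted p under 0.05. Smim22, a small membrane protein gene, read 1220 on the KO and 34.8 on the WT oocyte array and 3525 to 5367 in blastocysts, so that its stage difference was 1.58 in KO and 7.14 in WT (difference -5.56, SE 0.53, adjusted p = 0.0442). Rflnb, known as refilin B, read 597 and 9.98 in oocytes and 4131 to 7524 in blastocysts, with stage differences of 3.00 and 9.40. Both results rest on the low oocyte WT value, which lies below that array's background, and neither gene passed with 50 units added to every signal.

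Genes of other cells that the samples could hold were not uniformly low. Of 9 cumulus and granulosa markers 2 exceeded background on the oocyte KO array, 6 on the oocyte WT array and 1 to 5 on the blastocyst arrays. Of 8 uterine markers these numbers were 1, 5 and 1 to 2. Esr1 read 1851 and 1893 in oocytes and 11.1 to 217 in blastocysts. Amh reached 1980 on blastocyst KO array 1, Star 1451 on blastocyst KO array 2 and Foxl2 988 on the oocyte WT array. The summed signal of 9 cumulus and granulosa markers was 2941 and 3788 in oocytes and 1463 to 4818 in blastocysts, and for 8 uterine markers 3981 and 3577 against 1366 to 3375; of 14 cumulus list genes tested 1 was called (Fst, lower; adjusted p = 0.256 without the oocyte WT array). Of 16 uterine genes tested 2 rose and 3 fell, and of 5 blood and immune genes 3 rose and none fell. For 7 blood and immune markers it was 2060 and 1172 in oocytes and 1483 to 14339 in blastocysts. The genes called higher were Csf1r, Tyrobp and Adgre1, which macrophages express. Csf1r, a receptor that trophoblast also makes, read 6134 and 11937 on the KO and 593 and 3881 on the WT blastocyst arrays, and its groups overlap with the oocytes at 960 and 448. Tyrobp, a signalling adaptor, read 210 and 202 in oocytes, 1178 and 1842 on the KO and 287 and 580 on the WT blastocyst arrays (adjusted p = 0.018), and Adgre1, known as F4/80, read 506 and 358, then 2912 and 1087, and 707 and 711 (adjusted p = 0.0308). Both had non-overlapping stages and were higher on the KO than on the WT blastocyst arrays. Without the oocyte KO array none of the 3 was called (adjusted p = 0.174, 0.238 and 0.243); Tyrobp was also not called without blastocyst KO array 2 (0.072) and Adgre1 without blastocyst KO array 1 (0.106). Ptprc, the pan-leukocyte marker, was at or below background on all 6 arrays (31.9 to 169). The part of such cells in the results was not tested.

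Choice of probe set mattered for single genes and for some lists. Of 2595 called genes with more than 1 probe set tested, 1714 (66.05%) had all of them in the same direction. Probe sets disagreed in direction for Tfap2a, F11r, Mob1a, Psmc2, Cct4, Mdm2, Mdm4, Bcl2l11, Pdgfra and Rlim among others named by the rule, and their calls hold for the brightest probe set.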

How the data were processed

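RNA labelled as poly(A) RNA was hybridised to 1-colour Affymetrix mouse arrays, so tail length and amount cannot be told apart. The deposited intensity values are linear MAS5 signals, per the labels and the submitters' processing notes; further steps by the authors are not given in the sources used here. From them, log2 signals of 6 arrays were fitted with stage and genotype in limma 3.58.1 (R 4.3.3; lmFit, eBayes with intensity trend), with Benjamini-Hochberg adjustment over 11969 genes and a threshold of 0.05. Of 45101 probe sets, the upper 50% by the mean of the stage means (signal of 159 or more) were kept, and the brightest of a gene stood for it. Of all probe sets 34945 had 1 gene in the platform annotation, 932 several and 9160 none. Genes named were the 15 largest changes over background each way and up to 4 a list from 40 lists, plus paralog pairs and fixed markers; members and lists were chosen with earlier results of these data known. Replicate numbers did not pair the blastocyst arrays (correlation 0.02). The number of arrays limits the precision, and a gene not called is not shown to be equal. The fit was tested on simulated data, and alternatives covered scaling, floor, filter, probe set choice, moderation and each array left out.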

Additional observations from a re-analysis of the deposited data

Results flagged for a closer look

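Of 146 genes named above and tested, 8 had 1 of the 4 blastocyst arrays farther from the other 3 than Dixon's 95% critical value allows. Chance gives this in about 1 of 20 groups, so 8 is near the number that chance gives. Blastocyst WT array 1 was the highest for Gja1 (9835), Dppa5a (35300), Erbb3 (8407) and Rpl27 (27357). On the KO arrays, Gata6 (978) and Ern1 (686) were lowest on array 2 and Il6st (57.7) on array 1, and Kpna7 (24.3) was lowest on WT array 2. The Il6st and Kpna7 values lie below the background of their arrays.

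The stage difference differed by genotype for 2 genes under the interaction term. It was smaller in KO than in WT by 5.56 on the log2 scale for Smim22 (KO minus WT -5.56) and by 6.39 for Rflnb (KO minus WT -6.39). Each genotype had a single oocyte array, and the WT oocyte value of both genes was below background.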

How the results depend on the processing

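Between 2419 and 2989 genes were higher and 1708 to 2428 lower when each array was left out in turn (3822 to 4603 and 2444 to 3608 probe sets). Of 137 called genes named in the text, 105 kept direction and call in every one of the 22 alternatives that tested them (filters and probe set choices left out some genes) and 17 lost the call without 1 array. Probe sets called higher numbered 3038 after raising values to the background level, against 4836. Genes whose stage difference differed by genotype numbered 5 after quantile normalization (1431 at an unadjusted p under 0.05), 0 with 50 added to signals (1126), 0 without the intensity trend (1249) and 2128 after raising values to the background level, where each array has its own floor. With the replicate number of the blastocyst arrays as a block, 2918 genes were higher and 2339 lower; the numbers did not pair the arrays. The share of calls that were higher was 56.3%, and 49.8% to 59.7% over the alternatives. List medians turned sign as follows; the cause was not tested. DNA methylation was -0.28 with no filter, -0.37 on probe sets without a suffix and -0.062 on WT arrays only, and ran from -0.062 to 0.67 with 1 array left out. With probe sets above the controls in at least 1 stage, the sodium pump list was -0.20 and connexins -3.81. The connexin value equals that of Gjc1, the lowest member of the list in the main fit. This filter tested a different set of members. The imprinted list was 0.14 after raising and 0.0619 on WT arrays only. Implantation competence was -0.0925 after quantile normalization and DNA replication -0.026 on probe sets without a suffix. After raising, G1/S was 0.22, BCL2 and p53 0.052 and the X and Y list 0.28; that list was also 0.39 with no filter, 1.05 with the upper 30% or above the controls, 0.33 with probe sets averaged and 0.011 on KO arrays only, and ran from -1.24 to 0.011 with 1 array left out. Among genes, Dab2 was -0.26, Mdm2 0.37 and Tfap2c -0.63 on probe sets without a suffix, Rlim 0.88 with probe sets averaged and Tet3 0.10 after raising. With probe sets averaged, Yap1 (-0.95, adjusted p = 0.0997) and Wee1 (0.69, adjusted p = 0.284) were not called, nor was Ggct (-0.24, adjusted p = 0.796) without suffixed probe sets.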
